A study of Vitis vinifera with 36 samples.

Results

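The berry colour locus of grapevine is a stretch of chromosome 2 that carries copies of an R2R3-MYB activator, the *VviMYBA* genes. In dark berries these proteins work with a bHLH partner and a WD40 partner, and switch on the last steps of anthocyanin synthesis, above all *VviUFGT*, which attaches glucose to the anthocyanidin and so makes a stable pigment. White cultivars are known to carry alleles of *VviMYBA1* and *VviMYBA2* that do not give colour, the former with a retrotransposon in front of the gene and the latter with changes in its coding sequence, and the part of *VviMYBA3* in pigmentation is less clear. The members described here are the 4 genes that the study lists under these names, VIT_202s0033g00410 and VIT_202s0033g00380 (both *VviMYBA1*), VIT_202s0033g00390 (*VviMYBA2*) and VIT_202s0033g00450 (*VviMYBA3*), of 28441 genes listed in at least 1 library, and they were chosen by position and name, not by level. Since 2 genes share the name *VviMYBA1*, the members are given by the last part of the identifier, as g00410, g00380, g00390 and g00450.

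RNA of whole deseeded berries was sequenced from the black “CS” (Cabernet Sauvignon) and the white “Riesling”, in both crops of 2014, summer and winter, at 3 stages, which are the onset of veraison (E-L 35), when berries soften and black ones begin to colour, the end of that phase (E-L 36, the end of veraison) and harvest (E-L 38). This gave 36 libraries in 12 conditions with 3 biological replicates each, every one a pooled sub-sample of berries. Both crops came from vines grafted on SO4 under a rain shelter in southern China. They were pruned and forced with hydrogen cyanamide before each crop, in February for the summer and in August for the winter crop. For the summer crop the terminal bud was left unsprayed. Before the winter crop the vines were also defoliated by hand, and the agent went only on the terminal bud and near the pruning wound. Season, calendar date, weather and these treatments thus cannot be told apart. The white cultivar differs from the black one in its whole genome and not only at this locus. In a bulk sample, fewer cells of a type and less RNA per cell cannot be told apart.

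The total of the expected counts, the estimated reads per gene, was 8367013 to 28686956 per library, and 3 counts, taken as the floor, corresponded to 0.105 to 0.359 CPM (reads scaled to the library total). Levels are given in FPKM, which allows for transcript length. *VviAOMT* (VIT_201s0010g03510), an anthocyanin methyltransferase, followed the cultivar labels, with 14.98 to 138 FPKM in the 18 “CS” libraries and at most 0.640 in the 18 “Riesling” libraries. A ripening index, built from 148 genes that rose and 624 that fell during ripening in the other 3 series of stages, none of them a member, had a mean of -0.550 in the “Riesling” summer libraries labelled harvest and of 0.326 in those labelled as the end of veraison. The former thus lay below the latter, and none of these libraries was used in choosing the genes. Medians, ratios of summed counts and results of other genes were taken with the labels as given. Season and cultivar calls of members are also given with “Riesling” summer libraries of the end of veraison in place of those labelled harvest. This alternative was chosen after the index had been seen. The index means at harvest were 1.582 in “CS” summer, 2.546 in “CS” winter and 2.459 in “Riesling” winter. Those series chose the genes, and the substituted libraries, at 0.326, also lay below them. At the end of veraison “Riesling” winter berries, at -0.495, lay below summer berries, so the index was not matched there either.

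In the 12X V2 gene models all 4 members lie on the minus strand of chromosome 2, within 130 kb. Gene g00380 (14179439 to 14179684) has 1 exon of 246 bases with a coding part of 192 bases. By coordinate it ends 43 bases before g00390 (14179728 to 14180733), and on the minus strand it lies downstream of that gene. Gene g00390 has 3 exons and a coding part of 798 bases, nearly its whole transcript of 799 bases. Its model has 0 bases of 3′ untranslated sequence. Whether the 2 models are separate transcripts was not tested, and counts and sums of the 4 members take them as separate. Gene g00410 (14239584 to 14240983) has 2 transcripts with 753 and 840 coding bases, and g00450 (14308288 to 14309480) has 2 with 477 and 564 coding bases. The gaps between g00390 and g00410 and between g00410 and g00450 are 58.9 and 67.3 kb. Of the 11 other gene models between the members and within 100 kb on both sides, 6 were not listed in any library. The most abundant of the other 5, VIT_202s0033g00420 on the plus strand, reached 214 FPKM, and its highest condition mean was 161 in “Riesling” summer berries at the onset of veraison, a condition in which the members were low.

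Reads of near-identical copies are hard to place, and an estimated count need not be whole where a read fits more than 1 gene. A count that was not whole, to within 0.005, was found for g00410 in 26 of the 26 libraries that list it, for g00380 in 30 of 32, for g00390 in 36 of 36 and for g00450 in 35 of 35, but for *VviUFGT* in 0 of 36. Among all genes listed in a library, 23.8% to 28.9% had such a count. With which genes the reads were shared was not tested, the count of each member is uncertain to that extent, and the summed level is given beside the single genes. Gene g00380 is the shortest of the 4 gene models, with at most 48.6 counts in a “CS” summer library.

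The summed FPKM of the 4 members was highest in “CS” winter berries at the end of veraison, with 275 ± 27.3 (SD, n = 3), and was 193 ± 19.0 at the onset of veraison and 150.2 ± 79.8 at harvest. In “CS” summer berries it was 53.1 ± 1.79, 60.5 ± 2.01 and 53.5 ± 17.9 at these stages (SD, n = 3). “Riesling” winter berries went from 10.4 ± 5.44 at the onset of veraison to 124 ± 3.04 at the end of veraison and 139 ± 4.47 at harvest, and “Riesling” summer berries had 5.94 ± 4.87, 30.1 ± 31.8 and 0.767 ± 0.119 (SD, n = 3). The white cultivar thus had more transcript of these genes in the winter crop at the end of veraison and harvest than the black one had in any summer library, where the highest sum was 66.04 FPKM. In both cultivars g00390 (*VviMYBA2*) made up most of the sum, with condition means of 51.3% to 63.8% in “CS” and 62.4% to 72.8% in “Riesling”. The 72.8% is from the summer libraries labelled harvest, with sums of only 0.67 to 0.9 FPKM. Single “Riesling” libraries with low sums could differ. In summer replicate 2 at the onset of veraison g00390 made up 37.4% and g00380 56.0%.

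**Figure D1:**
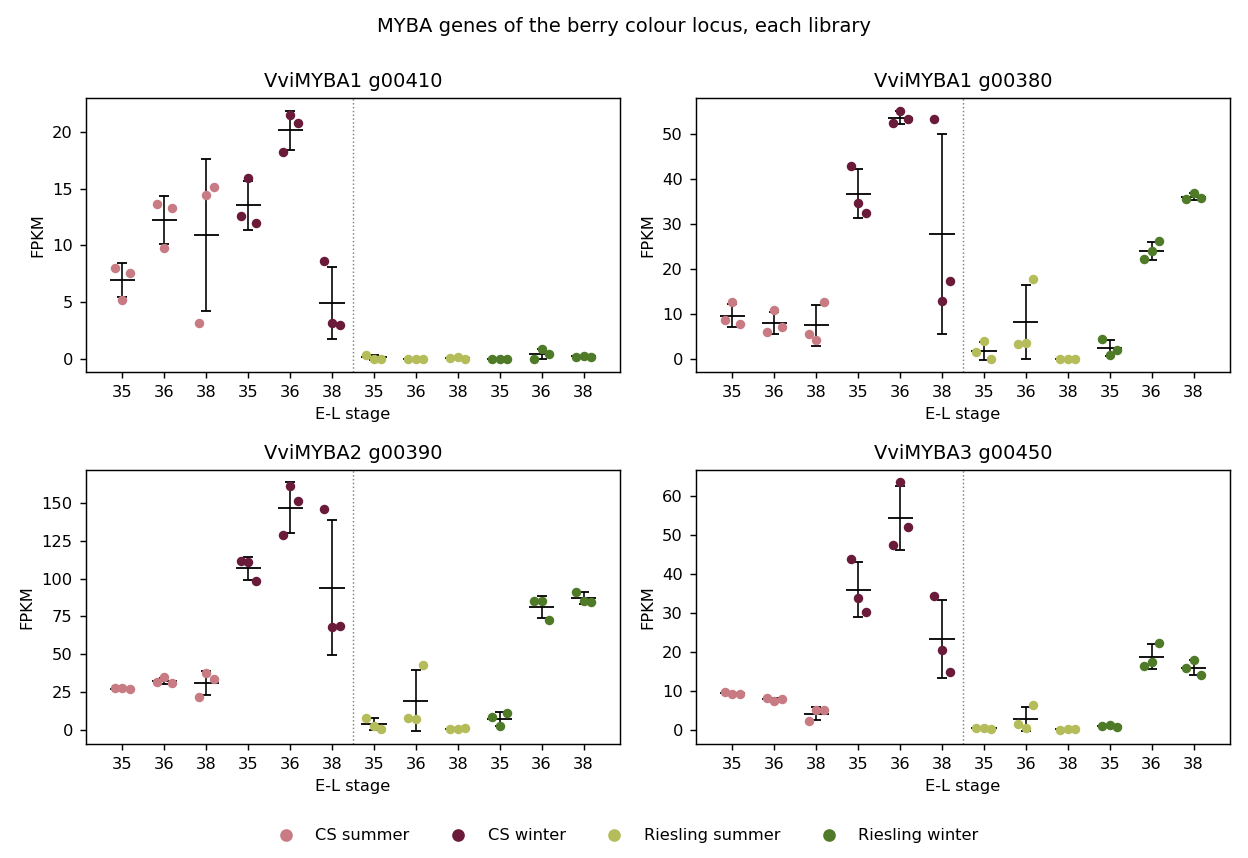
FPKM of each member in each of the 36 libraries (points), by E-L stage on the x axis and by cultivar and season in colour, with the mean and the SD of 3 replicates as black lines. Gene g00410 stays at or below 0.89 FPKM in all “Riesling” libraries, while the other 3 members are high in “CS” winter berries at all stages and in “Riesling” winter berries at the end of veraison and harvest.

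*VviMYBA1* g00410, the copy tied most closely to berry colour in grape, had 8.01, 5.21 and 7.54 FPKM in the 3 “CS” summer libraries at the onset of veraison, and 12.6, 15.97 and 12 in the winter libraries. At the end of veraison the summer libraries had 13.6, 9.77 and 13.3 FPKM and the winter libraries 18.2, 21.5 and 20.8. Winter was above summer in every library at these stages, without overlap. The seasons were apart, in either direction, for 50.7% and 57.2% of the 20183 genes tested there. At harvest the order was turned, with 3.17, 14.5 and 15.1 FPKM in summer and 8.58, 3.17 and 2.98 in winter, and the groups overlapped, with summer replicate 1 low and winter replicate 1 high. The log2 fold change of winter over summer was 1.00 (adjusted p = 0.0852, SE 0.45) at the onset of veraison, 0.87 (adjusted p = 0.129, SE 0.44) at the end of veraison and -1.25 (adjusted p = 0.0330, SE 0.48) at harvest in edgeR, and none passed the limits used throughout, which are 0.01 for the adjusted p and 2-fold for the change. At harvest the gene passed as lower in winter without “CS” summer replicate 1 (-1.71, adjusted p = 0.00208) or without “CS” winter replicate 1 (-1.86, adjusted p = 0.00477) in edgeR.

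In “Riesling”, g00410 was at or near the floor. It was not listed, and so taken as 0, in 10 of the 18 libraries, among them all 3 of summer at the end of veraison and all 3 of winter at the onset of veraison. Its highest value was 0.89 FPKM, or 12.04 counts, in winter replicate 2 at the end of veraison. The other libraries of that condition had 0 and 0.38 FPKM, and those of winter at harvest had 0.15, 0.26 and 0.19. No season comparison of g00410 passed the limits in “Riesling”. At the end of veraison in winter over summer it missed them in edgeR (adjusted p = 0.0119) and passed in DESeq2 (adjusted p = 0.000144) and in edgeR without winter replicate 1 (adjusted p = 0.00487), a difference between 0 counts in summer and 17.9 counts over 3 winter libraries.

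*VviMYBA2* g00390, the neighbouring activator of the same steps, had 27.3, 27.7 and 26.7 FPKM in “CS” summer libraries at the onset of veraison and 112, 111 and 98.3 in winter. At the end of veraison it had 31.4, 34.7 and 31.04 in summer and 129, 161 and 152 in winter, and at harvest 21.9, 37.6 and 33.2 in summer and 146, 67.9 and 68.6 in winter. The winter libraries were above all summer libraries at each stage, where 50.7%, 57.2% and 57.9% of all genes tested were apart in either direction. Winter replicate 1 stood out at harvest. The log2 fold change of g00390 in “CS” was 2.02 (adjusted p = 0.00119, SE 0.47) at the onset of veraison, 2.33 (adjusted p = 0.000285, SE 0.47) at the end of veraison and 1.56 (adjusted p = 0.00750, SE 0.47) at harvest in edgeR. The last of these is close to the limit. It was not past it in DESeq2 (adjusted p = 0.0191), nor in edgeR without winter replicate 1 (1.10, adjusted p = 0.0701) or without summer replicate 1 (1.34, adjusted p = 0.0441), 2 (1.71, adjusted p = 0.0148) or 3 (1.61, adjusted p = 0.0212).

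In “Riesling” summer berries g00390 had 7.82, 2.67 and 0.42 FPKM at the onset of veraison, 7.65, 7.17 and 42.8 at the end of veraison and 0.58, 0.33 and 0.78 in the libraries labelled harvest. In winter it had 8.19, 2.09 and 10.8 at the onset of veraison, 85.1, 85.4 and 72.9 at the end of veraison and 91.5, 85.2 and 84.5 at harvest. The seasons overlapped at the onset of veraison and were apart at the later stages. Of all genes tested, 44.1% and 67.2% were apart there in either direction. Replicate 3 of summer at the end of veraison stood far above the other 2. The log2 fold change was 0.84 (adjusted p = 0.325, SE 0.65) at the onset of veraison, 2.24 (adjusted p = 0.000756, SE 0.48) at the end of veraison and 7.21 (adjusted p = 2.8e-09, SE 0.75) at harvest in edgeR. By summed counts the winter level at harvest was 153 times that of the summer libraries of this label (95% exact interval 92.8 to 286, counting error only). Against the summer libraries labelled as the end of veraison the log2 fold change was 2.32 (adjusted p = 0.000222) in edgeR. Without summer replicate 3, that at the end of veraison was 3.60.

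*VviMYBA3* g00450 followed the same order. It had 9.56, 9.22 and 9.16 FPKM in “CS” summer libraries at the onset of veraison and 43.8, 33.8 and 30.3 in winter, 8.05, 7.46 and 7.99 in summer and 47.5, 63.6 and 52.2 in winter at the end of veraison, and 2.24, 5.10 and 5.07 in summer and 34.3, 20.6 and 14.8 in winter at harvest. The lowest winter library was above the highest summer library at all 3 stages. Of all genes tested, 50.7%, 57.2% and 57.9% were apart there in either direction. The log2 fold change of g00450 was 1.99 (adjusted p = 0.000237, SE 0.39), 2.94 (adjusted p = 2.3e-06, SE 0.41) and 2.45 (adjusted p = 4.0e-05, SE 0.44) in edgeR, and it passed the limits at each stage whichever 1 of the 6 libraries was left out. In “Riesling”, it had 0.33, 0.47 and 0.16 FPKM in summer and 1.04, 1.18 and 0.63 in winter at the onset of veraison, which rest on 9.52 and 28.4 counts over 3 libraries, and although the seasons did not overlap it did not pass (adjusted p = 0.237 in edgeR). At the end of veraison it had 1.32, 0.43 and 6.24 in summer and 16.3, 17.5 and 22.4 in winter, a log2 fold change of 2.94 (adjusted p = 1.2e-05, SE 0.44) in edgeR that was 4.61 without summer replicate 3. At harvest it had 0, 0.21 and 0.12 in the summer libraries and 15.9, 17.8 and 13.97 in winter. The summer libraries held 3.32 counts together, so that the ratio of summed counts, 148, has a 95% exact interval of 55.7 to 797, and the log2 fold change was 7.26 (adjusted p = 4.3e-09, SE 0.77) in edgeR. With the summer libraries labelled as the end of veraison in their place it was 2.70 (adjusted p = 1.3e-05).

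The short g00380, named *VviMYBA1* by the study, had the pattern of its neighbour g00390 rather than that of g00410. In “CS” it had 8.61, 12.6 and 7.72 FPKM in summer and 42.9, 34.8 and 32.5 in winter at the onset of veraison, 6.09, 10.9 and 7.17 in summer and 52.5, 55.2 and 53.3 in winter at the end of veraison, and 5.66, 4.21 and 12.6 in summer and 53.3, 12.9 and 17.3 in winter at harvest. Winter and summer did not overlap, though at harvest the gap between the nearest libraries was only from 12.6 to 12.9. The seasons were apart, in either direction, for 50.7%, 57.2% and 57.9% of all genes tested at these stages. The log2 fold change was 2.01 (adjusted p = 0.00364, SE 0.52) at the onset of veraison and 2.85 (adjusted p = 0.000176, SE 0.55) at the end of veraison in edgeR, past the limits, and 1.76 (adjusted p = 0.0127, SE 0.57) at harvest, not past them. At the onset of veraison it fell short of the limits without summer replicate 1 (adjusted p = 0.0134) or 3 (adjusted p = 0.0234) or winter replicate 1 (adjusted p = 0.0159). At harvest it passed in DESeq2 (adjusted p = 0.00396), and in edgeR without summer replicate 3 (2.35, adjusted p = 0.00744) or without winter replicate 2 (2.12, adjusted p = 0.00458).

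In “Riesling”, g00380 had 1.58, 4.00 and 0 FPKM in summer and 4.38, 0.85 and 2.02 in winter at the onset of veraison, 3.41, 3.53 and 17.7 in summer and 22.1, 23.9 and 26.2 in winter at the end of veraison, and 0 in all 3 summer libraries against 35.6, 36.96 and 35.8 in winter at harvest. Its log2 fold change at the end of veraison, 1.71 (adjusted p = 0.0169, SE 0.54) in edgeR, was not past the limits. It passed without summer replicate 3 (2.95, adjusted p = 0.000469) and in DESeq2 (adjusted p = 0.00729). At harvest it passed in edgeR (adjusted p = 1.3e-07), and since summer was at 0 the level was at least 27.7-fold higher in winter, computed against 3 counts in each summer library. Against the summer libraries labelled as the end of veraison the log2 fold change was 2.26 (adjusted p = 0.00106) in edgeR.

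Counted together, 3, 3 and 2 of the 4 members were higher in “CS” winter berries at the onset of veraison, its end and harvest, where 4.54%, 6.5% and 7.29% of the 20183 genes tested were. In “Riesling” the counts were 0, 2 and 3, against 5.54%, 4.65% and 11.8% of all genes, and none of the 4 was lower past the limits in either cultivar. Libraries of winter and summer that did not overlap, in either direction, were found for 50.7%, 57.2% and 57.9% of the 20183 genes in “CS” and for 38.5%, 44.1% and 67.2% in “Riesling”. The median log2 fold change of the members was 2.00, 2.59 and 1.66 in “CS” and 0.56, 2.59 and 7.23 in “Riesling”, while that of all genes was between -0.03 and 0.01. The 7.23 rests on the “Riesling” summer libraries labelled harvest, where the members were at or near the floor. With the summer libraries labelled as the end of veraison in their place, the changes of g00380, g00390 and g00450 given above were far smaller.

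**Figure D2:**
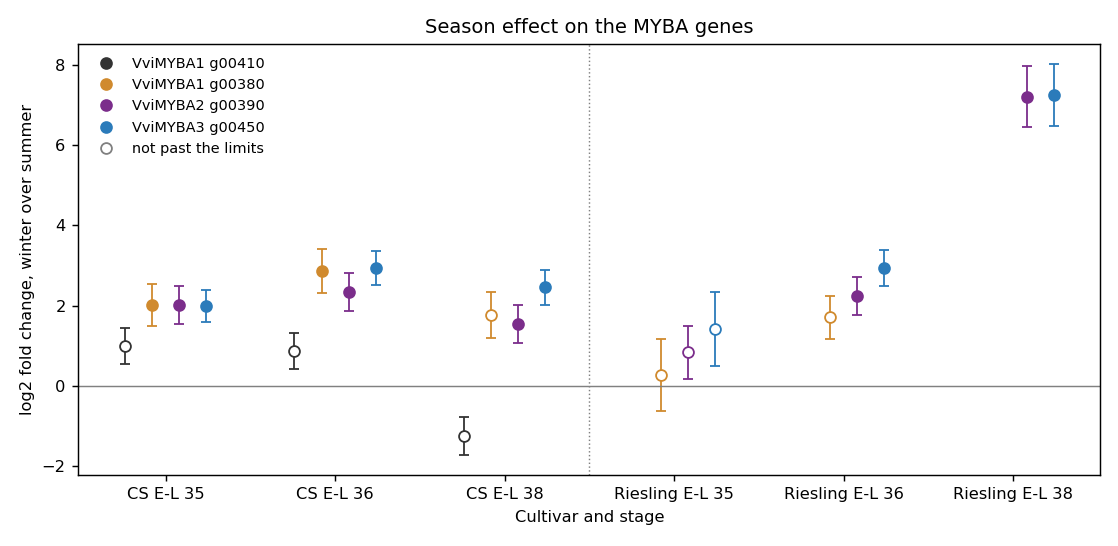
Log2 fold change of winter over summer for each member (points, with bars of 1 SE) in the 6 combinations of cultivar and stage on the x axis, from edgeR, with open points for values not past the limits. Values of g00410 in “Riesling” and of g00380 in “Riesling” at harvest are left out because libraries at 0 set them. Genes g00380, g00390 and g00450 lie between 1.56 and 2.94 in “CS”, and g00410 lies below them at every stage.

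Whether the season acted on the members to the same extent in the black cultivar was asked with the ratio of g00410 to g00390 in each “CS” library. The ratio was 0.255 ± 0.058, 0.381 ± 0.086 and 0.328 ± 0.163 in summer and 0.126 ± 0.016, 0.137 ± 0.004 and 0.050 ± 0.008 in winter at the onset of veraison, its end and harvest (SD, n = 3). No winter library reached the lowest summer library of its stage. The mean difference of the log2 ratio, winter minus summer, was -1.67 over the 3 stages (exact two-sided permutation of the season within stage, p = 0.00025, the smallest that the 8000 arrangements allow), and by stage it was -0.99, -1.45 and -2.58. Leaving out 1 library gave -1.84 to -1.57. The share of g00410 in the summed FPKM was 13.1%, 20.3% and 18.7% in summer and 7.03%, 7.32% and 3.15% in winter at these stages. The ratios of g00380 and g00450 to g00390, not tested, showed no such gap at the onset of veraison, with means of 0.353 and 0.342 in summer and 0.343 and 0.335 in winter. Both were higher in winter at the end of veraison without overlap, the opposite direction to g00410, with 0.246 ± 0.062 in summer and 0.367 ± 0.035 in winter for g00380 and 0.243 ± 0.024 and 0.369 ± 0.025 for g00450 (SD, n = 3). At harvest, the ratio of g00450 to g00390 was 0.130 ± 0.025 in summer and 0.251 ± 0.046 in winter (SD, n = 3), without overlap.

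**Figure D3:**
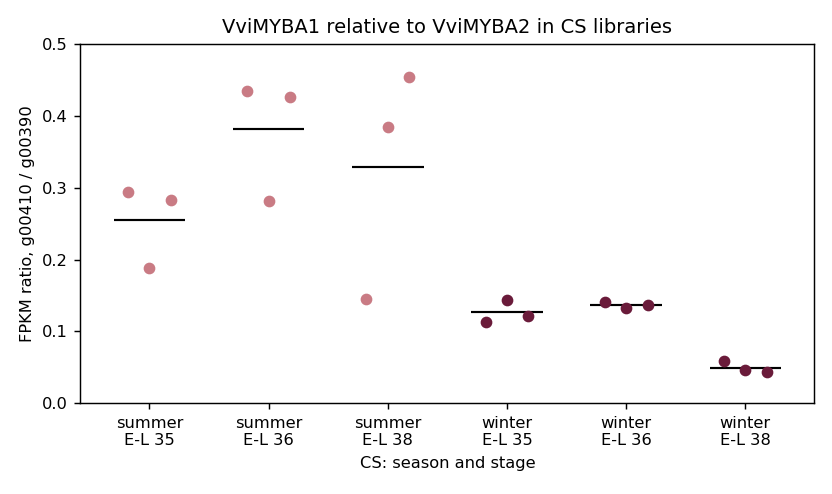
FPKM of g00410 divided by FPKM of g00390 in each of the 18 “CS” libraries (points), by season and stage on the x axis, with the mean of 3 replicates as a black line. Winter libraries lie at 0.0434 to 0.144 and summer libraries at 0.1449 to 0.4546.

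Between the cultivars, within season and stage, g00410 was lower in “Riesling” in all 6 comparisons. Where “Riesling” was at 0, it was at least 77.9-fold higher in “CS” in summer at the end of veraison and at least 53.1-fold higher in winter at the onset of veraison. By summed counts the level in “CS” was 56.6 times that in “Riesling” in summer at the onset of veraison (95% exact interval 21.7 to 158) and 119 times in summer at harvest (46.2 to 662). In winter it was 44.9 times at the end of veraison (28.1 to 75.6) and 20.5 times at harvest (9.87 to 51.9). These ratios rest on “Riesling” libraries near the floor and move with 1 library. In summer at the onset of veraison only “Riesling” replicate 1 was above 0, and without it the level was at least 26.8-fold higher in “CS”. Without “Riesling” replicate 2 the ratio of mean FPKM went from 47.6 to 106 in winter at the end of veraison and from 117 to 243 in summer at harvest, and without “CS” winter replicate 1 it went from 24.6 to 15.4 in winter at harvest. The gene passed the limits in each comparison whichever 1 library was left out, with a log2 fold change of -9.72 to -5.06 in summer at the onset of veraison, -6.54 to -5.09 in winter at the end of veraison and -4.78 to -3.92 in winter at harvest. The other 3 members depended on season and stage. In summer, 3 of the 4 members were lower in “Riesling” at the onset of veraison, 2 at the end of veraison and 4 in the libraries labelled harvest, against 5.66%, 7.61% and 8.84% of all genes. With the “Riesling” summer libraries labelled as the end of veraison set against “CS” summer berries at harvest, 1 member, g00410, was lower past the limits in edgeR. In winter the counts were 4, 2 and 1, against 5.91%, 4.95% and 6.56%.

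In the winter crop these 3 members passed the limits between the cultivars at the onset of veraison and not at harvest. At the onset of veraison, “CS” had 36.7 ± 5.46 FPKM of g00380, 107 ± 7.48 of g00390 and 35.97 ± 7.02 of g00450, and “Riesling” 2.42 ± 1.80, 7.04 ± 4.48 and 0.950 ± 0.286 (SD, n = 3). At harvest “CS” had 27.8 ± 22.2, 94.2 ± 44.9 and 23.2 ± 10.01, and “Riesling” 36.1 ± 0.738, 87.1 ± 3.89 and 15.9 ± 1.91 (SD, n = 3). The libraries of the cultivars overlapped for these genes at harvest, but for g00380 and g00390 the overlap rests on “CS” winter replicate 1. The other “CS” libraries had 12.9 and 17.3 FPKM of g00380, against at least 35.6 in “Riesling”, and 67.9 and 68.6 of g00390, against at least 84.5. The log2 fold change of “Riesling” over “CS” was -4.02, -4.12 and -5.37 at the onset of veraison (adjusted p = 2.4e-05, 9.3e-07 and 6.5e-09 in edgeR). At harvest it was 0.41 (adjusted p = 0.565, SE 0.50), -0.13 (adjusted p = 0.859, SE 0.45) and -0.58 (adjusted p = 0.260, SE 0.39), so that a difference was not detectable at this spread. Without “CS” winter replicate 1 the values were 1.26 (adjusted p = 0.0682) for g00380, 0.33 (adjusted p = 0.652) for g00390 and -0.21 (adjusted p = 0.748) for g00450, none past the limits. At the end of veraison only g00410 (-5.61, adjusted p = 1.5e-07, SE 0.63) and g00450 (-1.71, adjusted p = 0.000885, SE 0.39) passed, and g00380 (-1.31, adjusted p = 0.0406) and g00390 (-1.02, adjusted p = 0.0742) did not, in edgeR.

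In summer berries, g00390 was lower in “Riesling” at the onset of veraison (-2.93, adjusted p = 0.000227, SE 0.58) and in the libraries labelled harvest (-5.78, adjusted p = 6.2e-07, SE 0.77) in edgeR, the latter not with the libraries labelled as the end of veraison in their place (-0.89, adjusted p = 0.139). At the end of veraison it was -0.93 (adjusted p = 0.111), and without “Riesling” summer replicate 3 it was -2.30 (adjusted p = 0.000133), past the limits. In the same comparison g00450 passed with -1.72 (adjusted p = 0.00273) and did not without “Riesling” summer replicate 1 (-1.37, adjusted p = 0.0230) or 2 (-1.20, adjusted p = 0.0166). Gene g00380 missed the limits at the onset of veraison (-2.29, adjusted p = 0.0141), where it passed in DESeq2 (adjusted p = 0.00268) and, in edgeR, without “Riesling” summer replicate 2 (-3.33, adjusted p = 0.00898). These comparisons use the same libraries as those between the seasons and are not independent of them.

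An interaction at each stage tested whether winter over summer had the same size in both cultivars. At the onset and end of veraison, 0 of the 4 members passed an adjusted p of 0.01 in edgeR, against 1.53% and 11.7% of all genes. At an unadjusted p under 0.05 the counts were 0 and 1, the latter g00410, which passed in DESeq2 with a larger effect in “Riesling” (4.85, adjusted p = 0.00467). That value depends on how 0 counts in all “Riesling” summer libraries of the end of veraison are fitted. At harvest, 3 members passed, against 13.4%, with a larger effect in “Riesling” by 7.89 (adjusted p = 0.000973, SE 1.65) for g00380, 5.65 (adjusted p = 6.5e-05, SE 0.93) for g00390 and 4.80 (adjusted p = 0.00144, SE 1.06) for g00450 on the log2 scale. These 3 values rest on the “Riesling” summer libraries labelled harvest, and that of g00380 depends on how a level of 0 is fitted. With the “Riesling” summer libraries labelled as the end of veraison in their place, the differences were 0.50, 0.77 and 0.24 (adjusted p = 0.699, 0.440 and 0.826 in edgeR) and 0 of the 4 members passed.

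Along ripening in “CS” summer berries, 0 of the 4 members passed from the onset of veraison to its end and 0 from the end of veraison to harvest in edgeR, against 6.51% and 2.41% of all genes in either direction, and 0 had an unadjusted p under 0.05 in either step. In “CS” winter berries 0 passed in the first step, against 9.39%, also with 0 at an unadjusted p under 0.05. From the end of veraison to harvest, 2 fell, against 15.9%. These were g00410 with -2.25 (adjusted p = 0.000374, SE 0.47), whose 3 libraries of harvest all lay below those of the end of veraison, and g00450 with -1.37 (adjusted p = 0.00397, SE 0.38). Between these stages 59.2% of the 20183 genes tested were apart in either direction. The call of g00450 was lost without replicate 2 of the end of veraison (-1.24, adjusted p = 0.0209) and without winter harvest replicate 2 (-1.30, adjusted p = 0.0212) or 3 (-1.14, adjusted p = 0.0320). Gene g00380 (-1.16, adjusted p = 0.0557) passed only without winter harvest replicate 1 (-2.01, adjusted p = 0.00303), and g00390 was at -0.81 (adjusted p = 0.138).

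In “Riesling” winter berries 3 members rose from the onset of veraison to its end, against 10.1% of all genes. The log2 fold change was 3.43 (adjusted p = 0.000223, SE 0.67) for g00380, 3.71 (adjusted p = 5.4e-06, SE 0.54) for g00390 and 4.41 (adjusted p = 3.8e-07, SE 0.54) for g00450 in edgeR. From the end of veraison to harvest none of the 4 passed, against 18.9%, with 0 at an unadjusted p under 0.05, and the values of these 3 were 0.55, 0.08 and -0.24. In “Riesling” summer berries 2 members passed from the onset of veraison to its end, against 10.2%, g00390 with 2.31 (adjusted p = 0.00247, SE 0.58) and g00450 with 2.89 (adjusted p = 0.00302, SE 0.75). Both rest on replicate 3 of the end of veraison, and without it they were 0.95 (adjusted p = 0.149) and 1.22 (adjusted p = 0.161). The call of g00390 was also lost without replicate 2 (2.11, adjusted p = 0.0170) or 3 (1.83, adjusted p = 0.0223) of the onset of veraison, and that of g00450 without its replicate 1 (2.96, adjusted p = 0.0112) or 3 (2.53, adjusted p = 0.0231). With the replicate number as a block, which pairs these libraries by the correlation of their deviations, g00450 passed (2.58, adjusted p = 0.00482) and g00390 did not (1.94, adjusted p = 0.0185). From the end of veraison to the libraries labelled harvest, 3 members fell, against 11.9%, with -4.89 (adjusted p = 1.7e-05, SE 0.79) for g00390, -4.56 (adjusted p = 0.000337, SE 0.95) for g00450, and for g00380 a level at least 6.34-fold lower (adjusted p = 0.000239). The 3 calls were kept whichever 1 library was left out, but the sizes rest on replicate 3 of the end of veraison. Without it the values were -3.52 for g00390 and -2.89 for g00450, and g00380 was at least 2.65-fold lower.

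Ordered by mean level over the 12 conditions, all 4 members had their highest mean in “CS” winter berries at the end of veraison. Its libraries did not overlap with those of the next condition, “CS” winter at the onset of veraison. Between these conditions 53.3% of the 20183 genes tested were apart in either direction, and 0 of the 4 members passed the limits. Beyond these conditions the order differed. For g00410 the 6 “CS” conditions came first and all “Riesling” conditions last, with a gap between 4.91 FPKM in “CS” winter at harvest and 0.423 in “Riesling” winter at the end of veraison. For the other 3 members the 3 “CS” winter conditions and the “Riesling” winter conditions at the end of veraison and harvest came first, and “CS” summer berries followed after a gap, from 81.1 to 32.4 FPKM for g00390, from 24.1 to 9.63 for g00380 and from 15.9 to 9.31 for g00450. Below this gap neighbouring conditions overlapped except for g00450. Its “CS” summer libraries were apart from stage to stage, at 9.31, 7.83 and 4.14 FPKM, where 45.3% and 36% of all genes tested were. Its “Riesling” winter and summer libraries were apart at the onset of veraison, where 38.5% of all genes tested were.

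The members' partners and targets were taken from 4 lists of the study's annotation. *VviUFGT* (VIT_216s0039g02230) had 30.9, 45.7 and 43.0 FPKM in “CS” summer and 52.5, 49.8 and 43.2 in winter at the onset of veraison, 56.1, 47.8 and 55.6 in summer and 117, 130 and 123 in winter at the end of veraison, and 22.03, 46.3 and 45.8 in summer and 57.9, 43.6 and 43.4 in winter at harvest. Only the groups at the end of veraison were apart, as were 57.2% of all genes tested there in either direction. The log2 fold change there was 1.36 (adjusted p = 4.4e-07, SE 0.17) in edgeR, and the values at the onset of veraison (0.34, adjusted p = 0.118) and harvest (0.29, adjusted p = 0.162) were not past the limits. In “Riesling” it stayed between 7.10 and 10.8 FPKM in all 18 libraries, with log2 fold changes of -0.36, 0.45 and -0.18 that did not pass (adjusted p = 0.133, 0.0670 and 0.429 in edgeR). The 6 “Riesling” winter libraries of the end of veraison and harvest, whose summed members were at 122 to 143 FPKM, had 7.63 to 10.3 FPKM of *VviUFGT*. The “CS” summer libraries had 22.03 to 56.1 FPKM at a lower sum of 32.9 to 66.04.

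**Figure D4:**
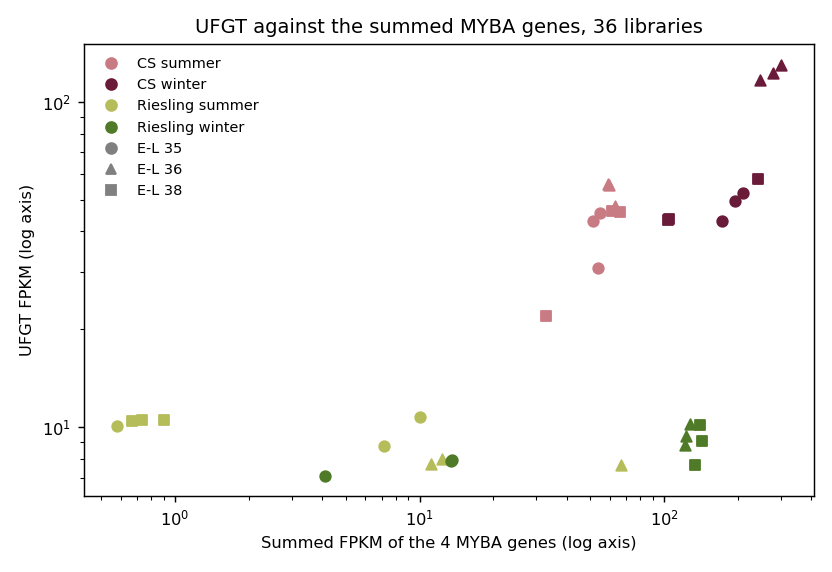
FPKM of *VviUFGT* (y axis) against the summed FPKM of the 4 members (x axis) in the 36 libraries, on log axes, with cultivar and season in colour and the stage as the shape of the point. All “Riesling” points lie between 7.10 and 10.8 on the y axis over sums from 0.58 to 143, and all “CS” points are at 22.03 or above.

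The late anthocyanin list held *VviLDOX*, *VviUFGT*, *VviAOMT* and *Vvi3AT*, 7 genes that were all tested. The paper reports winter changes of genes under each of these names in these libraries, so the counts were partly fixed beforehand. In “CS” winter berries 2, 5 and 0 of them were higher at the onset of veraison, its end and harvest and 0, 1 and 0 lower, with a median log2 fold change of 0.85, 1.47 and 0.57, where 4.54%, 6.5% and 7.29% of all genes were higher. The gene that fell was *VviLDOX* VIT_208s0105g00380, with -1.45 (adjusted p = 2.3e-07, SE 0.18) in edgeR. In “Riesling” 0, 1 and 1 were higher, against 5.54%, 4.65% and 11.8% of all genes, and none lower, both calls from *VviLDOX* VIT_202s0025g04720, an oxygenase whose product is also used for flavan-3-ols, with 13.2, 8.30 and 20.05 FPKM in summer and 33.6, 33.02 and 30.8 in winter at the end of veraison (1.38, adjusted p = 0.000157, SE 0.25). Between the cultivars, 6 or 7 of the 7 were lower in “Riesling” in each of the 6 comparisons, against 4.95% to 8.84% of all genes. The 6 VviF3′5′H genes lead to the blue-red delphinidin branch. The paper names these same 6 as raised in winter berries around veraison in these libraries, so their counts were partly fixed beforehand. Of them, 3, 6 and 4 were higher in “CS” winter berries, against the same 4.54%, 6.5% and 7.29%. In “Riesling” 0, 0 and 0 passed in edgeR, with 0, 1 and 0 at an unadjusted p under 0.05, and their levels there were at most 8.17 FPKM.

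Partners of the MYB-bHLH-WD40 complex changed in few comparisons. Of *VviMYC1*, *VviMYCA1* and *VviWDR1*, none was higher in winter past the limits in either cultivar, and only *VviWDR1* was lower, in “CS” at harvest with -1.04 (adjusted p = 4.7e-06, SE 0.16) in edgeR. The bHLH *VviMYC1*, which binds VviMYBA1, had condition means of 17.7 to 27.2 FPKM in “CS” and 10.4 to 23.3 in “Riesling”, and its season effect was at most 0.58 in size (log2). Of 4 MYB repressors 3 were tested, and all 3 were higher in “CS” winter berries at the end of veraison, where 6.5% of all genes were, *VviMYBC2-L1* with 1.40 (adjusted p = 2.9e-08, SE 0.15), *VviMYBC2-L3* with 2.73 (adjusted p = 0.00372, SE 0.71) and *VviMYB4a* with 1.23 (adjusted p = 2.2e-08, SE 0.13), and 0 at the other stages. The paper already reports these 3 as raised at that stage, and *VviWDR1* as lowered at harvest, in these libraries. These results were thus partly fixed beforehand. In “Riesling” *VviMYB4a* was higher at the end of veraison with 1.33 (adjusted p = 2.0e-08, SE 0.13), from 36.3 ± 8.09 to 81.4 ± 6.95 FPKM (SD, n = 3). *VviMYBC2-L2* was at or below 0.24 FPKM in all libraries and was not tested.

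Likeness of pattern was described by the Pearson r of log2 CPM over the 18 “CS” libraries, which share libraries, depth and the season and stage differences, against the other 20160 genes that could be compared. Gene g00410 was most like VIT_207s0005g05160 (0.937), and among the genes the study names most like *VviCHI* VIT_213s0067g02870 (0.829), *Vvi3AT* VIT_203s0017g00870 (0.809) and *VviAOMT* VIT_201s0010g03490 (0.781). Its r with the other members was only 0.452 to 0.463. Gene g00390 was most like *VviPAL* VIT_206s0004g02620 (0.978), then among named genes g00450 (0.944) and g00380 (0.942). Gene g00380 was nearest to g00390 (0.942), followed among named genes by *VviNCED6* VIT_205s0051g00670 (0.940) and g00450 (0.932). Gene g00450 was nearest to VIT_200s1321g00010 (0.973), and among named genes to *VviPP2C* VIT_216s0050g02680 (0.951), g00390 (0.944) and *VviCHS3* VIT_205s0136g00260 (0.943). In the 18 “Riesling” libraries the r between g00380, g00390 and g00450 was 0.945 to 0.975. With *VviUFGT*, the r in “CS” was 0.722 for g00410, 0.729 for g00390, 0.701 for g00380 and 0.741 for g00450. Among the genes compared *VviUFGT* ranked 68, 841, 805 and 722 for these members. In the “Riesling” libraries the r with *VviUFGT* was -0.002 for g00390, 0.004 for g00380 and 0.069 for g00450. With *VviLDOX* VIT_202s0025g04720 it was 0.848, 0.846 and 0.905 for these members there. With *VviLDOX* VIT_208s0105g00380 it was -0.443, -0.484 and -0.505, and with the *VviAOMT* and *Vvi3AT* genes of the late list -0.108 to 0.25.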

How the data were processed

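The authors counted reads against the 12X V2 gene models. The labels name Bowtie, and the program that estimated counts is not given in the sources used here, nor is the use of strand. As deposited by the authors, each library has an expected count (estimated reads per gene, not normalized, fractional where reads are shared) and an FPKM value (scaled by transcript length and library size). A gene absent from a library's table was taken as 0. A whole-series table with 36 numbered columns was not used. The members and lists were chosen with earlier results of these data known, and names came from the study's text and tables.

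Expected counts were rounded, filtered with filterByExpr (20183 genes left), normalized with TMM and tested in 1 fit of the 12 conditions with the quasi-likelihood F-test of edgeR 4.0.16 (limma 3.58.1, R 4.3.3). P-values were adjusted over all genes after Benjamini and Hochberg. The limits were 0.01 for the adjusted p and 2-fold for the change (interactions, the adjusted p alone). SE is the log2 fold change over the root of F. Comparisons were season, cultivar, stage and interaction, 6, 6, 8 and 3 of them. Intervals and floors (3 counts) cover counting error only. Named genes were the 4 members, those of the 4 lists, and for each member the nearest gene and the nearest 3 named genes of 216. The ratio of g00410 to g00390 was tested by exact permutation in Python 3.11.15 (numpy 2.4.6, scipy 1.17.1, pandas 2.3.3, matplotlib 3.10.9).

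Alternatives were DESeq2 1.42.0, its size factors in edgeR, no filter, limma on log2(FPKM + 1) and log2(FPKM + 0.1), the replicate number as a block, only the libraries compared, an adjusted p of 0.05 without a fold limit, leaving out each library and, chosen after seeing the data, “Riesling” summer E-L 36 in place of E-L 38. The replicate numbers of the labels were checked by correlating, over 17275 genes, deviations of same-numbered libraries from their condition means. All 3 exceeded 0.1 in “Riesling” for winter against summer at E-L 36 (0.136, 0.159 and 0.278) and for E-L 36 against E-L 35 in summer (0.152, 0.108 and 0.252), and only there are the numbers treated as pairs. The fit was tested on simulated data.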

Additional observations from a re-analysis of the deposited data

Results flagged for a closer look

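By the interaction in edgeR, 3 members had a larger season effect in “Riesling” than in “CS” at harvest (E-L 38). The difference, “Riesling” minus “CS” on the log2 scale, was 7.89 for g00380, 5.65 for g00390 and 4.80 for g00450, and each passed an adjusted p of 0.01 in all 12 fits that left out 1 library and in 8 other settings. All 3 rest on the “Riesling” summer libraries labelled E-L 38, where these genes were at or near 0 and the ripening index was below that of E-L 36. With the “Riesling” summer libraries labelled E-L 36 in their place the differences were 0.50, 0.77 and 0.24, and none passed (adjusted p = 0.699, 0.440 and 0.826 in edgeR).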

How the results depend on the processing

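Counts below are of the 4 members past the limits. With limma on log2(FPKM + 0.1) they were 1 in “CS” for winter over summer at E-L 35, 1 at E-L 38, 1 for the cultivars in winter at E-L 36 and 1 for “CS” winter E-L 38 over E-L 36. An adjusted p of 0.05 with no fold limit gave 4 for season in “CS” at E-L 38, where g00410 was lower in winter (-1.25) and the others higher. It also gave 4 for season in “Riesling” at E-L 36, and DESeq2 gave 4 there and 1 for the interaction at E-L 36. With only the libraries compared, the counts were 0 for season in “Riesling” at E-L 36, 1 for the cultivars in summer at E-L 36, 0 for “Riesling” summer E-L 36 over E-L 35 and 1 for E-L 38 over E-L 36. In the first of these g00390 and g00450 kept log2 fold changes of 2.24 (adjusted p = 0.0494) and 2.94 (adjusted p = 0.0343) and missed the limit on p, and in others some members were not tested because their counts were filtered out. With the replicate number as a block 1 member passed for season in “CS” at E-L 38, where the numbers did not pair the libraries, and 1 for “Riesling” summer E-L 36 over E-L 35, where they did, and the block changed no other call of a member. With the “Riesling” summer libraries of E-L 36 in place of those of E-L 38, chosen after seeing the data, 1 member passed between the cultivars in summer at E-L 38 and 0 in the interaction at E-L 38, and 3 for season. Leaving out 1 library gave 1 to 3 members for season in “CS” at E-L 38, with g00410 lower in winter where it passed. It gave 1 to 3 for the cultivars in summer at E-L 36, 1 to 3 for “CS” winter E-L 38 over E-L 36 and 0 to 2 for “Riesling” summer E-L 36 over E-L 35.

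Directions turned only in values not past the limits. The interaction at E-L 36 for g00390 was 0.34 and 0.42 with limma on log2(FPKM + 1) and log2(FPKM + 0.1) and 0.35 with the block, and that of g00450 was -0.018 without the filter. Over the fits without 1 library this interaction was -1.52 to 0.094 for g00380, -0.48 to 1.27 for g00390 and -0.50 to 1.67 for g00450. The same fits gave -0.52 to 1.29 for g00380 in “Riesling” winter over summer at E-L 35, -1.40 to 0.21 for g00380 between the cultivars in summer at E-L 36 and -0.31 to 0.33 for g00390 in winter at E-L 38. In “CS” summer they gave -0.44 to 0.013 for g00380 in the step to E-L 36, and in the step to E-L 38 -0.43 to 0.35 for g00410, -0.65 to 0.24 for g00380 and -0.18 to 0.20 for g00390. The causes were not tested. The values are limited by 3 replicates per condition of 1 vineyard and 1 year, by counts near 0 in “Riesling”, and by counts that were not whole.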
